A study of Mus musculus with 6 samples.

Results

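The 8 genes described here encode apolipoproteins, the proteins that coat lipid particles in blood and tissue fluid. They are Apoa1, Apoa2, Apoa4, Apob, Apoc1, Apoc2, Apoe and Apom, chosen by symbol among the 22180 genes that carried a single symbol in the platform annotation. Each had 1 array row with that symbol alone, 8 rows of 41345 in all. Apolipoprotein B is built into each newly made very low density lipoprotein or chylomicron, the A apolipoproteins and apolipoprotein M ride mainly on high density lipoprotein, and the C and E apolipoproteins move between particles and control how they are lipolysed and taken up. In the early mouse embryo the visceral endoderm of the yolk sac, and later the liver, make and secrete most of these proteins, whereas apolipoprotein E is also made by macrophages and several other cell types.

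Expression was measured on Affymetrix arrays in pools of C57BL/6 mouse hearts taken at embryonic day 9.5. The samples were 3 pools from Hdac3-flox/flox; Isl1-Cre embryos (Hdac3-Isl1KO) and 3 from Hdac3-flox/flox embryos, so that both groups carried the floxed histone deacetylase gene Hdac3 and only the first carried Cre. Isl1-Cre acts in cells that express Isl1 and in their descendants, among them the second heart field progenitors of the outflow tract and right ventricle, so a heart pool mixes recombined and unrecombined cells. The comparison asks which transcripts change in the heart when Hdac3 is lost from that lineage, and Hdac3 loss and presence of the Cre allele cannot be told apart. Neither the number of hearts in a pool nor their litters are given in the sources used here, so the p-values reflect how far these pools scatter, and that scatter may be technical.

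All values are log2 expression values made by RMA, so a difference of 1 is a doubling, and rows of different genes are not compared in level because probes differ in brightness. Hdac3 read 9.11, 9.20 and 9.31 in Hdac3-Isl1KO hearts and 9.67, 9.73 and 9.64 in Hdac3-flox/flox hearts, a difference of -0.47 whose adjusted p of 0.0636 (limma, Benjamini-Hochberg over all genes) missed the threshold of 0.05. Hdac3 passed under 5 settings, among them a prior variance trended on level (limma adjusted p = 0.00111), array weights (0.0419) and a filter on genes below the median row (0.0109), in a range of 0.00108 to 0.244. In the settings named, 3.90%, 1.10% and 4.94% of all genes tested passed. The heart muscle genes Tnnt2 and Actc1 averaged 13.1 and 13.4 in Hdac3-Isl1KO hearts against 13.2 and 13.4 in Hdac3-flox/flox hearts, near the top of the arrays' range of 1.43 to 14.2. Array medians lay between 5.64 and 5.71 and correlations between arrays between 0.980 and 0.989. Hdac3-flox/flox replicate 2 stood farthest from the others, with a mean correlation of 0.982 and a first principal component score of 52.3 against -27.4 to 10.4 for the other 5 arrays. Precision is limited by how few arrays there were, and dim values cannot be separated from background because no detection calls were used.

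All 8 apolipoprotein genes averaged higher in Hdac3-Isl1KO than in Hdac3-flox/flox hearts, by 0.03 to 0.39 on the log2 scale with a median of 0.20, but none of the 8 differences passed the test over all genes. The largest were those of Apoa2 (1.31-fold), Apoc1 (1.20-fold) and Apob (1.18-fold), and the smallest was that of Apoa4 (1.02-fold). Over all 22180 genes the median difference was 9.4e-05, and 50.0% of differences lay above 0. With limma, 0 of 8 had an adjusted p under 0.05, where 0.428% of all genes did (95 genes, and 2 to 25 with any 1 array left out). Apoa2 and Apoc1 had an unadjusted p under 0.05 and were higher, 2 of 8 against 6.57% of all genes in that direction. Without any overlap between groups, 3 of 8 genes (Apoa2, Apoc1 and Apoa1) were higher in every Hdac3-Isl1KO array, against 9.41% of all genes in that direction and 21.8% in either. Without Hdac3-flox/flox replicate 2, the array that stood apart, 7 of 8 differences lay above 0 with a median of 0.18, and those of Apoa2 and Apoc1 were 0.32 and 0.23. The 8 genes were chosen with these values known, so their counts and median are given as a description and the genes were not tested as a set. In whole hearts, more cells of a type and more RNA per cell cannot be told apart.

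**Figure D1:**
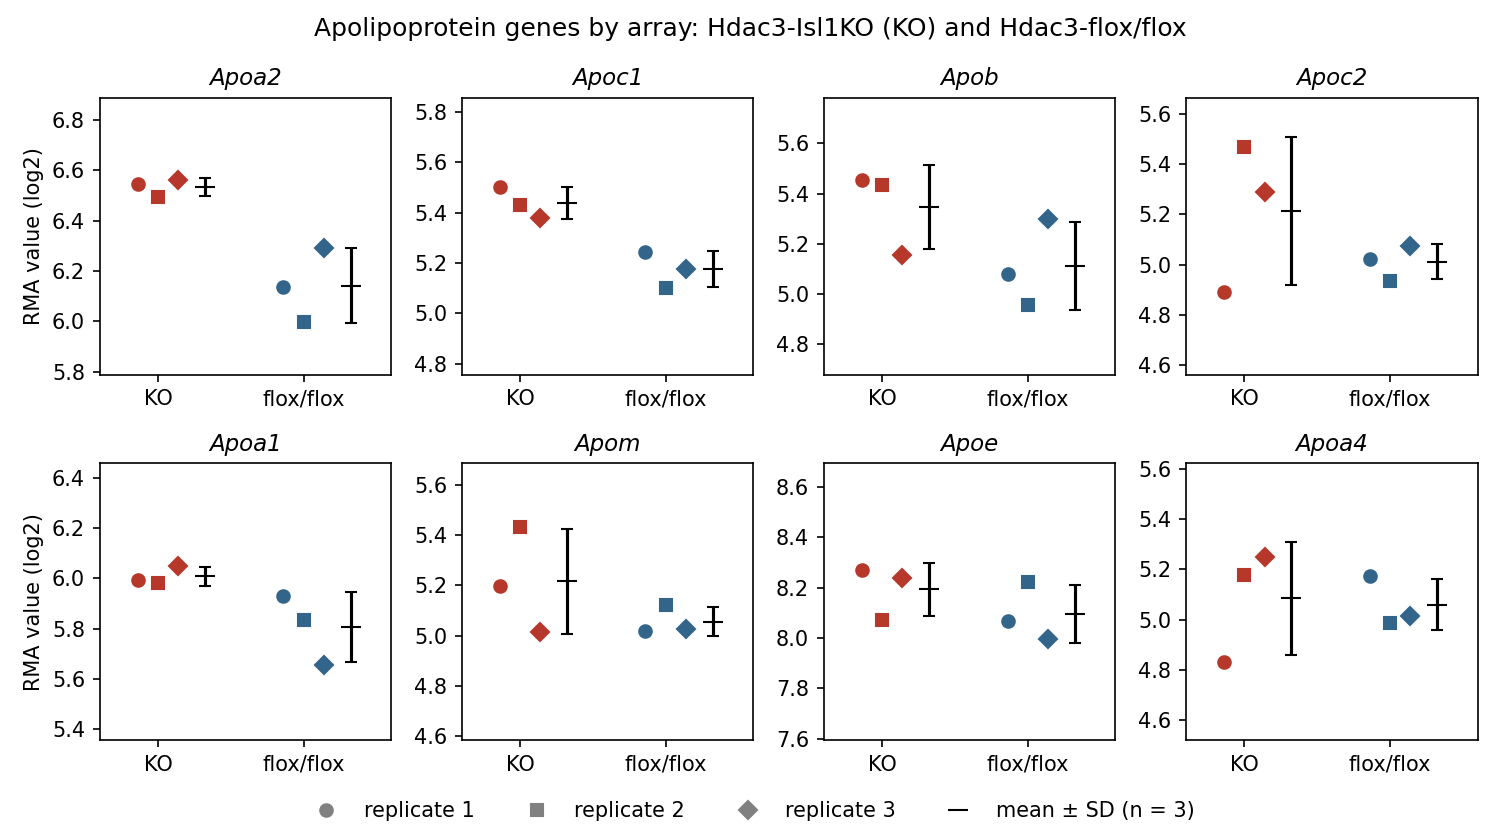
RMA values (log2) of the 8 apolipoprotein genes in 3 Hdac3-Isl1KO and 3 Hdac3-flox/flox arrays, with the mean and SD of each group (n = 3); each panel spans the same range of log2 units around its gene's mean. Apoa2, Apoc1 and Apoa1 show groups that do not overlap, and the other 5 genes overlap.

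Apoa2 and Apoa1 encode the 2 most abundant proteins of high density lipoprotein, and apolipoprotein A-I also activates the cholesterol-esterifying enzyme LCAT. Apoa2 read 6.55, 6.50 and 6.56 in Hdac3-Isl1KO hearts, against 6.14, 6.00 and 6.29 in Hdac3-flox/flox hearts. The Hdac3-Isl1KO arrays were tightly grouped and all lay above the highest Hdac3-flox/flox array. Apoa2 averaged 6.53 ± 0.03 in Hdac3-Isl1KO and 6.14 ± 0.15 in Hdac3-flox/flox hearts (SD, n = 3 each), a difference of 0.39 with a 95% interval of 0.18 to 0.60, or 1.13-fold to 1.52-fold. Its limma p ranked 521 of 22180, with an unadjusted value of 0.00334 and an adjusted value of 0.142. Leaving out the genes below the median array row removed 9700 genes and with them 5 of the 8 apolipoprotein genes. This filter brought the limma adjusted p of Apoa2 to 0.0372, where 4.94% of all genes tested passed. Over all settings the limma adjusted p of Apoa2 ranged from 0.0372 to 0.360.

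Apoa1 read 5.99, 5.98 and 6.05 in Hdac3-Isl1KO hearts and 5.93, 5.84 and 5.66 in Hdac3-flox/flox hearts. Its groups did not overlap, though the lowest Hdac3-Isl1KO array and the highest Hdac3-flox/flox array were close. The means were 6.01 ± 0.04 in Hdac3-Isl1KO and 5.81 ± 0.14 in Hdac3-flox/flox hearts (SD, n = 3 each). Apoa1 thus differed by 0.20 (95% interval -0.0053 to 0.41), with a limma unadjusted p of 0.0547 and an adjusted p of 0.357. Without Hdac3-flox/flox replicate 3, the lowest array, that difference was 0.13.

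Of the 7 apolipoprotein genes with a window in a RefSeq promoter table (GRCm38.p6; Apoc1 was the one without), 3 are shown as the 250 bases before a RefSeq start: Apoa2 and Apoa1, whose groups did not overlap, and Apob, which had the largest difference among the genes whose groups overlapped. Each is written 5′ to 3′ on its gene's strand, and capitals mark matches to 4 short motifs searched on both strands, namely the TATA box (TATAAA), a forkhead FOXA motif (TGTTTAC), a nuclear receptor motif (AGGTCA) and an HNF4-type motif (CAAAGTC).
Apoa2, chr1:171224804-171225053, + strand: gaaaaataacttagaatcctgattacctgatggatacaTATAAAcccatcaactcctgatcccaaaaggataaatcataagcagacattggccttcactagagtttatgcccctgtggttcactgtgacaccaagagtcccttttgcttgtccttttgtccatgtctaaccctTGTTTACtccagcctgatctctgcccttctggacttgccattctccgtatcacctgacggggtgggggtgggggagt
Apoa1, chr9:46228380-46228629, + strand: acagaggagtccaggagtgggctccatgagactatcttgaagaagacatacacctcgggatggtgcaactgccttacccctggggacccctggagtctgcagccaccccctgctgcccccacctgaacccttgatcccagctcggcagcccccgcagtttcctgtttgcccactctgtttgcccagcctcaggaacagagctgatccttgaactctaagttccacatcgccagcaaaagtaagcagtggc
Apob, chr12:7977427-7977676, + strand: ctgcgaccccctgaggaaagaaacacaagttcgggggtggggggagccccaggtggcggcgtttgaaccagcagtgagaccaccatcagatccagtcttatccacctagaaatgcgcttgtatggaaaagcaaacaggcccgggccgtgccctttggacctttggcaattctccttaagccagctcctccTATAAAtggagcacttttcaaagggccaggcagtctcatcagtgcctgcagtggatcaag
The Apoa2 window held TATAAA from 212 to 207 bases before the start and TGTTTAC from 77 to 71 bases before it. The Apob window held TATAAA from 60 to 55 bases before the start, and the Apoa1 window held none of the 4 motifs. A second RefSeq start of Apoa2 had AGGTCA on the opposite strand. Of the other genes, whose windows are not shown, Apoc2 had AGGTCA and a window of Apoe had TATAAA on both strands. The windows of Apoa4 and Apom held none of the 4 motifs. Among all 32851 such windows, 12.4% held TATAAA, 3.17% TGTTTAC, 14.02% AGGTCA and 3.84% CAAAGTC. The capitals in the Apoa2 and Apob windows do not overlap one another, and matches describe the letters only.

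Apoa4 and Apom encode other proteins of high density lipoprotein. Apolipoprotein A-IV is best known from the intestine, where it joins chylomicrons, and apolipoprotein M carries the signalling lipid sphingosine 1-phosphate. Apoa4 read 4.83, 5.18 and 5.25 in Hdac3-Isl1KO hearts, against 5.17, 4.99 and 5.01 in Hdac3-flox/flox hearts. Hdac3-Isl1KO replicate 1 was the lowest of the 6 arrays for this gene and replicate 3 the highest, so the Hdac3-flox/flox arrays lay inside the Hdac3-Isl1KO range. Its difference of 0.03 (95% interval -0.27 to 0.32, limma adjusted p = 0.946) would allow a change of 0.83-fold to 1.25-fold, and its sign turned when Hdac3-flox/flox replicate 2 or Hdac3-Isl1KO replicate 2 or 3 was left out (-0.0097, -0.02 and -0.06). Apom read 5.20, 5.43 and 5.02 in Hdac3-Isl1KO hearts and 5.02, 5.12 and 5.03 in Hdac3-flox/flox hearts. Its difference of 0.16 (95% interval -0.11 to 0.43, limma adjusted p = 0.566) was 0.05 without Hdac3-Isl1KO replicate 2 and 0.26 without Hdac3-Isl1KO replicate 3.

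Apob encodes the large structural protein of very low density lipoprotein and chylomicrons. In Hdac3-Isl1KO hearts Apob read 5.45, 5.43 and 5.16, against 5.08, 4.96 and 5.30 in Hdac3-flox/flox hearts. Hdac3-Isl1KO replicates 1 and 2 lay above all Hdac3-flox/flox arrays, while Hdac3-Isl1KO replicate 3 lay below Hdac3-flox/flox replicate 3. The means were 5.35 ± 0.17 and 5.11 ± 0.17 in Hdac3-Isl1KO and Hdac3-flox/flox hearts (SD, n = 3 each), which differ by 0.23 (95% interval -0.05 to 0.52, limma unadjusted p = 0.0951, adjusted p = 0.436). With 1 array left out, the difference of Apob lay between 0.16 and 0.33.

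Apoc1, Apoc2 and Apoe encode exchangeable apolipoproteins. Apolipoprotein C-I slows the uptake of lipoprotein remnants, C-II is the cofactor that lipoprotein lipase needs, and E is the ligand through which receptors of the LDL receptor family take up remnants. Apoc1 read 5.50, 5.43 and 5.38 in Hdac3-Isl1KO hearts, against 5.25, 5.10 and 5.18 in Hdac3-flox/flox hearts. All Hdac3-Isl1KO arrays lay above all Hdac3-flox/flox arrays, and the spread was small in both groups. Apoc1 averaged 5.44 ± 0.06 in Hdac3-Isl1KO and 5.17 ± 0.07 in Hdac3-flox/flox hearts (SD, n = 3 each), a difference of 0.26 (95% interval 0.09 to 0.44, or 1.06-fold to 1.35-fold). With limma its unadjusted p was 0.00896 and its adjusted p 0.198, and over the settings that kept the gene the adjusted p ranged from 0.130 to 0.422.

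Apoc2 read 4.89, 5.47 and 5.29 in Hdac3-Isl1KO hearts and 5.02, 4.94 and 5.07 in Hdac3-flox/flox hearts. As for Apoa4, Hdac3-Isl1KO replicate 1 was the lowest of the 6 arrays, and the SD was 0.30 in Hdac3-Isl1KO against 0.07 in Hdac3-flox/flox hearts. Its difference was 0.20 (95% interval -0.14 to 0.55, limma adjusted p = 0.575), 0.37 without Hdac3-Isl1KO replicate 1 and 0.08 without replicate 2 of that group. Apoe read 8.27, 8.07 and 8.24 in Hdac3-Isl1KO hearts, against 8.07, 8.22 and 7.996 in Hdac3-flox/flox hearts. The groups interleaved, with a difference of 0.10 (95% interval -0.12 to 0.31, limma adjusted p = 0.674), so the interval ends at 1.24-fold higher. It was 0.05 without Hdac3-flox/flox replicate 3 and 0.16 without Hdac3-flox/flox replicate 2. Of the 8 rows, 5 averaged below the median row (5.66) and none below the 25th percentile row (4.45).

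**Figure D2:**
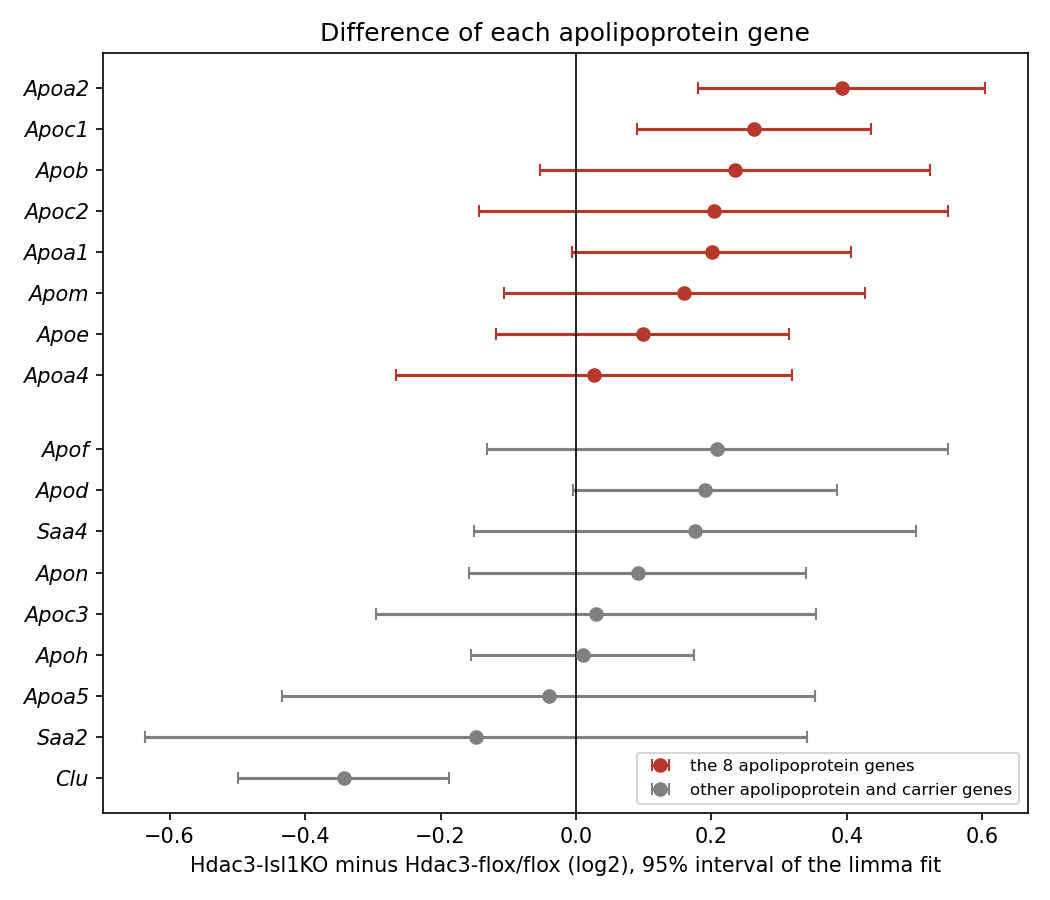
Hdac3-Isl1KO minus Hdac3-flox/flox difference (log2) of the 8 apolipoprotein genes and of 9 other genes of apolipoproteins or similar lipid carriers, with 95% intervals from the limma fit. All 8 points of the upper block lie above 0, and the intervals of Apoa2 and Apoc1 exclude 0 before adjustment; in the lower block Clu lies farthest below 0, at -0.34.

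Several of these genes are neighbours. In the RefSeq gene table Apoa1, Apoc3, Apoa4 and Apoa5 follow each other on chromosome 9, and Apoc2, Apoc4, Apoc1 and Apoe on chromosome 7. Along the first cluster the differences were 0.20 for Apoa1, 0.03 for Apoc3, 0.03 for Apoa4 and -0.04 for Apoa5, whose limma adjusted p-values ranged from 0.357 to 0.946. Along the second they were 0.20 for Apoc2, 0.26 for Apoc1 and 0.10 for Apoe, with Apoc4 read only by a row shared with Apoc2. Differences between neighbours within a cluster were not tested. Apoc3, which restrains lipoprotein lipase, turned sign with Hdac3-flox/flox replicate 1 (-0.10) or Hdac3-Isl1KO replicate 3 (-0.06) left out.

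Other apolipoprotein and carrier genes pointed both ways. Of 9 measured, 6 lay above 0 and 3 below, with a median of 0.03 (0.01 to 0.07 with 1 array dropped). With limma 0 passed over all genes (background 0.428%), and the only one with an unadjusted p under 0.05 was Clu, which encodes apolipoprotein J (clusterin), a secreted chaperone. Clu read 7.65, 7.53 and 7.62 in Hdac3-Isl1KO hearts and 7.93, 7.96 and 7.94 in Hdac3-flox/flox hearts, so its groups were separate and it was lower in Hdac3-Isl1KO. The difference of Clu was -0.34 (95% interval -0.50 to -0.19, limma unadjusted p = 0.00128, adjusted p = 0.0973). Clu passed when the prior variance was trended on level (limma adjusted p = 0.0118) or without the genes below the median row (0.0187). Under these settings 3.90% and 4.94% of all genes tested passed. Over all settings the limma adjusted p of Clu ranged from 0.0118 to 0.313. By p-value Apod, Apof and Saa4 came next in this group, with log2 differences of 0.19, 0.21 and 0.18. Their limma adjusted p-values ranged from 0.357 to 0.612.

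Genes that assemble, secrete and remodel lipoproteins showed a median of 0.04 (0.01 to 0.05 with 1 array dropped, lowest without Hdac3-Isl1KO replicate 3), and 12 of the 20 measured lay above 0. One fell over all genes with limma, 1 of 20 where 0.198% of all genes fell. It was Lipg, the endothelial lipase that hydrolyses phospholipids of high density lipoprotein, at 5.77, 6.11 and 5.87 in Hdac3-Isl1KO hearts against 6.73, 6.78 and 6.75 in Hdac3-flox/flox hearts. Lipg was lower in every Hdac3-Isl1KO array, with a difference of -0.83 (95% interval -1.07 to -0.60, limma adjusted p = 0.0300), and no longer passed once any 1 array was dropped (limma adjusted p = 0.0628 to 0.155). Sar1b, a GTPase that loads lipoprotein carriers leaving the endoplasmic reticulum, differed by 0.32, Lpl, the lipoprotein lipase that apolipoprotein C-II activates, by -0.38, and Pltp, the phospholipid transfer protein, by 0.23, with limma adjusted p-values of 0.108, 0.148 and 0.279. Sar1b and Lpl passed once the prior variance was trended on level (limma adjusted p = 0.00209 and 0.0124) or without the genes below the median row (0.0216 and 0.0396). Under these settings 3.90% and 4.94% of all genes tested passed. Mttp, whose product loads lipid onto apolipoprotein B, differed by 0.06 (95% interval -0.18 to 0.30), and Abca1, which lipidates apolipoprotein A-I, by 0.08 (95% interval -0.15 to 0.31). Their signs turned with 1 array left out.

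Lipoprotein receptors and uptake genes showed a median of -0.02, which was 0.02 after quantile normalization and 0.0023 without Hdac3-Isl1KO replicate 3, and of the 17 measured 6 lay above 0 and 11 below. With limma 0 of 17 passed over all genes (background 0.428%), while 2 higher members (6.57% of all genes) and 3 lower members (7.96%) had an unadjusted p under 0.05. Dropping Hdac3-flox/flox replicate 1 or 2 brought the median to -0.06 or -0.07. Vldlr, a receptor for apolipoprotein E particles, read 6.16, 6.45 and 6.46 in Hdac3-Isl1KO hearts, against 6.63, 6.64 and 6.83 in Hdac3-flox/flox hearts. Its groups did not overlap, with a difference of -0.34 (95% interval -0.59 to -0.08, limma adjusted p = 0.239). Mylip, the ligase that marks LDL receptors for breakdown, differed by -0.27, Cd36, a fatty acid and lipoprotein scavenger receptor, by -0.32, and Dab1, an adaptor of apolipoprotein E receptors, by 0.22 (limma adjusted p = 0.253 to 0.302).

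Transcription factors known to act on apolipoprotein genes, mostly from work on liver, showed a median of 0.08, and 13 of the 18 measured lay above 0. Dropping Hdac3-flox/flox replicate 2 brought that median to 0.04. With limma 0 passed over all genes (background 0.428%), 4 of 18 had an unadjusted p under 0.05 and were higher (6.57% of all genes), and 5 of 18 were higher in every Hdac3-Isl1KO array, where 9.41% of all genes were. Creb3l3, a membrane-bound factor that regulates Apoa4 and Apoc2 in mouse liver, read 6.33, 6.69 and 6.18 in Hdac3-Isl1KO hearts and 6.16, 5.93 and 5.78 in Hdac3-flox/flox hearts. Its arrays did not overlap between groups, with a difference of 0.44 (95% interval 0.08 to 0.81, limma adjusted p = 0.268). Foxa1, a forkhead factor of endoderm, differed by 0.32, Rxra, the partner of many lipid-sensing nuclear receptors, by 0.22, and Nr2f6, an orphan nuclear receptor, by 0.18 (limma adjusted p = 0.233 to 0.321). Hnf4a, a central regulator of apolipoprotein genes in liver and visceral endoderm, had a difference of 0.14 (limma adjusted p = 0.712, 95% interval -0.21 to 0.49), which was -0.0012 without Hdac3-flox/flox replicate 2.

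Markers of tissues that make these proteins were read in the same arrays. Visceral endoderm and liver markers showed a median of 0.10, with 13 of the 18 measured above 0 and 7 of 18 higher in every Hdac3-Isl1KO array (background 9.41%). That median was 0.06 without Hdac3-Isl1KO replicate 3. Foxa2 and Hnf4a were also counted among the transcription factors, and Cubn and Amn among the receptors and uptake genes, so these lists are not separate. Foxa2 was higher in every Hdac3-Isl1KO array and counts in both of its lists. The summed unlogged values of the visceral endoderm and liver markers ranged from 832 to 868 in Hdac3-Isl1KO and from 676 to 742 in Hdac3-flox/flox hearts, and those of the 8 apolipoprotein genes from 633 to 650 and from 558 to 582. Such sums weight bright rows most. Apoe, whose groups interleaved, had the highest mean of the 8 (8.14, against 6.34 for Apoa2), so the sums do not show how far the 8 genes agree. One marker, the fibrinogen chain gene Fgb, rose over all genes (0.93, limma adjusted p = 0.0204, background 0.230%), but its limma adjusted p was 0.0548 to 0.119 with any 1 array left out. The fetal plasma protein genes Afp (0.84) and Alb (0.71) and the trypsin inhibitor gene Spink1 (0.57) had limma adjusted p-values of 0.0515 to 0.176. Plasma protein genes of the same list that lay below 0 included Ahsg (-0.18), Fga (-0.17), another fibrinogen chain gene, and Fetub (-0.15). Their limma adjusted p-values were 0.543 to 0.647. Afp passed under 7 settings and Alb under 3. With the prior variance trended on level the limma adjusted p-values of Afp and Alb were 0.00231 and 0.0311, where 3.90% of all genes passed. Ttr, the transthyretin gene, read 6.25, 6.23 and 6.27 in Hdac3-Isl1KO hearts against 6.00, 5.54 and 6.18 in Hdac3-flox/flox hearts (difference 0.34, limma adjusted p = 0.378), and the difference was 0.16 without Hdac3-flox/flox replicate 2. No RMA value is 0, and 5 of the 18 markers averaged below the 25th percentile row. The part of such cells in the apolipoprotein values was not tested.

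Trophoblast markers included the larger differences among the marker genes. Of 13 measured, 10 lay above 0 with a median of 0.10 (0.07 to 0.16 with 1 array dropped, highest without Hdac3-flox/flox replicate 2). The median was 0.19 without genes below the 25th percentile row and 1.27 without those below the median row. These filters used the mean over all 6 arrays, so a gene can pass through 1 group alone. Prl7a1 averaged 5.19 in Hdac3-flox/flox and 6.51 in Hdac3-Isl1KO hearts, on either side of the median row (5.66). The 1.27 thus depends on which genes the filter kept. Of the 13, 4 rose with limma over all genes, where 0.230% of all genes rose. They were the placental prolactin genes Prl4a1 (1.81), Prl3d3 (1.44) and Prl7a1 (1.32) and the pregnancy-specific glycoprotein gene Psg29 (1.22), with limma adjusted p-values of 0.00127 to 0.0300, although 3 of these genes lost the threshold with some arrays left out (limma adjusted p up to 0.151) and Prl4a1 did not. Their families share sequence that probes may read in common. The 3 markers below 0 were Psg21 (-0.07), Psg17 (-0.05) and Ascl2 (-0.04), with limma adjusted p-values of 0.838 to 0.899. Psg16 and Ctsq differed by only 0.0080 and 0.0026, so the rise of Psg29 was not shared by the other Psg genes listed. The summed unlogged values of the list ranged from 1202 to 1231 in Hdac3-Isl1KO and from 755 to 814 in Hdac3-flox/flox hearts, and 4 of 13 markers averaged below the 25th percentile row. Hand1, which is also a core cardiac factor, had the highest values of the list and weighs most in these sums. It averaged 8.70 in Hdac3-Isl1KO and 8.54 in Hdac3-flox/flox hearts.

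Macrophage markers, of a cell type that makes apolipoprotein E, showed a median of 0.11, and 13 of the 15 lay above 0. That median was 0.04 without Hdac3-Isl1KO replicate 3 and 0.17 without Hdac3-Isl1KO replicate 1. Of these 0 passed with limma over all genes (background 0.428%), while 3 of 15 had an unadjusted p under 0.05 and were higher, where 6.57% of all genes were. Their summed unlogged values ranged from 854 to 959 in Hdac3-Isl1KO and from 795 to 875 in Hdac3-flox/flox hearts, which overlap, and 2 of 15 averaged below the 25th percentile row. By p-value Lyz2, Adgre1, Mrc1 and Tyrobp came first, with log2 differences of 0.38, 0.40, 0.37 and 0.17 and limma adjusted p-values of 0.149 to 0.497. Lyz2 passed without the genes below the median row (limma adjusted p = 0.0399), where 4.94% of all genes tested did. The 2 markers below 0 were Cd68 (-0.09) and Csf1r (-0.01), and C1qa, Spi1, Ptprc and Aif1 differed by only 0.01 to 0.02. Heart muscle markers showed a median of -0.09, with 12 of the 15 below 0 and 10 of 15 lower in every Hdac3-Isl1KO array, where 12.4% of all genes were; the median was -0.05 without Hdac3-Isl1KO replicate 1. With limma 0 of them passed over all genes (background 0.428%). An unadjusted p under 0.05 was found for 3 lower members, Myl2 (-0.29), Ttn (-0.19) and Tbx5 (-0.18), against 7.96% of all genes in that direction, and for 1 higher member, Myl7 (0.16), against 6.57%. All 4 passed once the prior variance was trended on level (limma adjusted p = 0.00607 to 0.0380), a setting under which 3.90% of all genes passed. How far these lists account for the apolipoprotein differences was not tested.

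**Figure D3:**
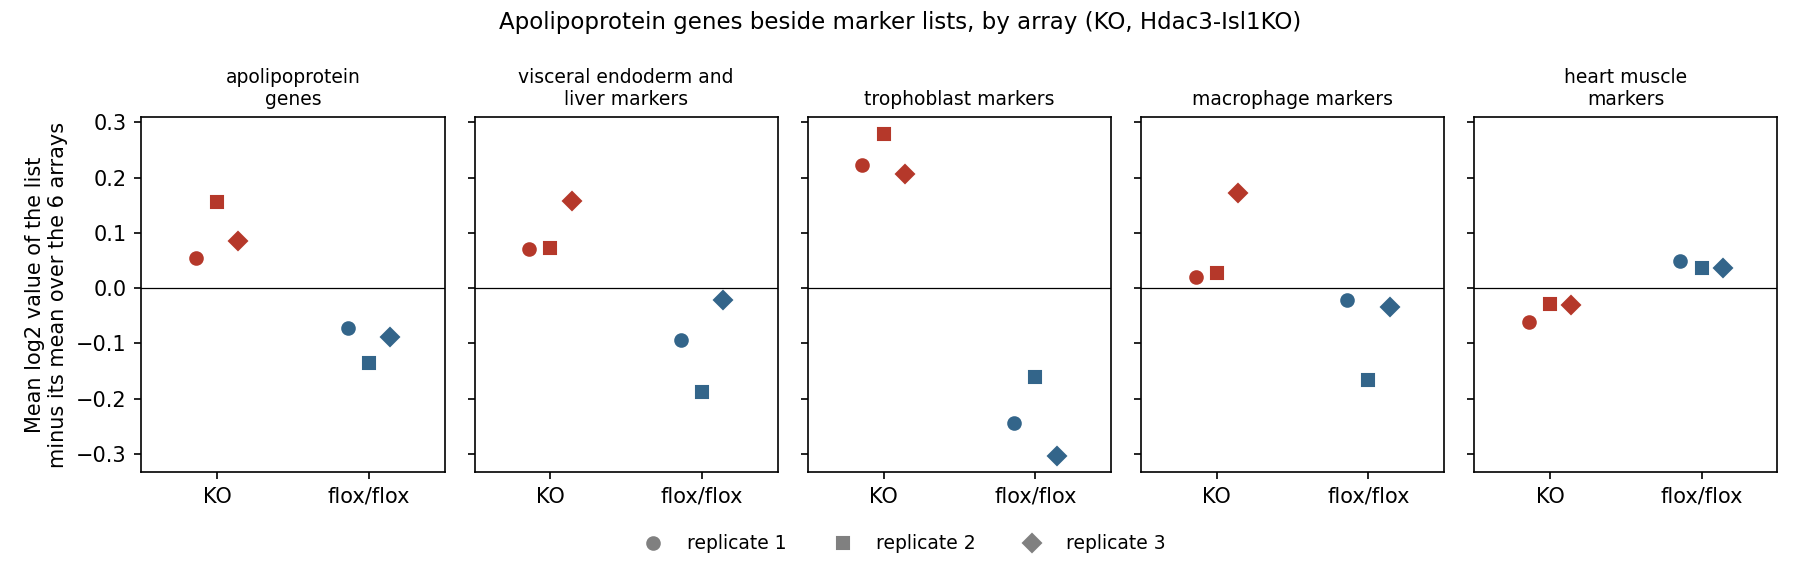
Mean log2 value of the 8 apolipoprotein genes and of 4 marker lists in each array, minus the list's mean over the 6 arrays, for Hdac3-Isl1KO (KO) and Hdac3-flox/flox. In the apolipoprotein panel Hdac3-Isl1KO replicate 2 is highest (0.16) and Hdac3-flox/flox replicate 2 lowest (-0.14); the order of arrays within a group differs between panels.

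By array, the 8 genes lay on average 0.05, 0.16 and 0.09 above their own means in Hdac3-Isl1KO replicates 1 to 3, and -0.07, -0.14 and -0.09 from them in Hdac3-flox/flox replicates 1 to 3. Between 6 and 7 of the 8 genes were above their own mean in each Hdac3-Isl1KO array, and 1 or 2 in each Hdac3-flox/flox array. Each mean was taken over both groups, so these counts partly restate the group differences. Apoa2, which had the largest difference, was used to look for similar profiles, measured as the root mean square difference over the 6 arrays after each gene's mean was taken off. Outside the 8 genes, Cndp1 (0.04), 1810006J02Rik (0.04), Atp5k (0.05), 4921524J17Rik (0.05) and Myo3a (0.05) were closest to it. Among the apolipoprotein genes Apoc1 was closest (0.11), with 293 other genes closer, followed by Apob (0.14), and Apoa4 was farthest (0.25), with 10849 other genes closer. None of the other 7 apolipoprotein genes was thus among the nearest profiles to Apoa2.

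**Figure D4:**
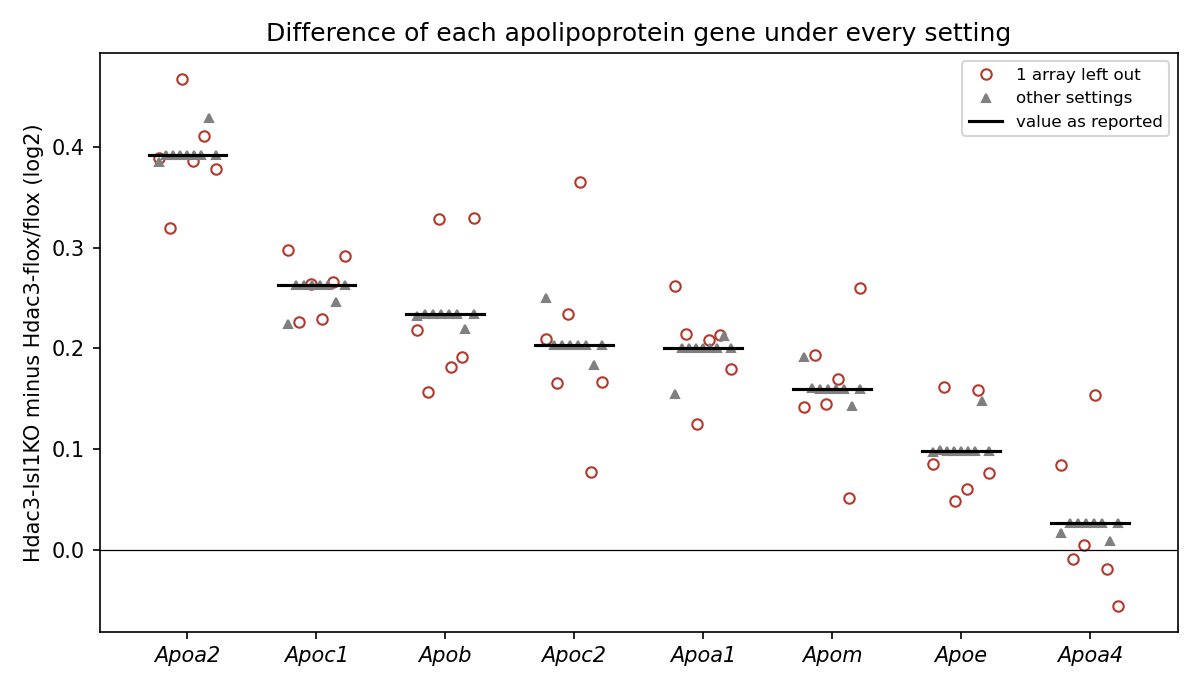
Hdac3-Isl1KO minus Hdac3-flox/flox difference (log2) of the 8 apolipoprotein genes as reported (line), with 1 array left out (circles) and under the other settings (triangles). Of the 8, Apoa4 alone crosses 0, and Apoa2 stays between 0.32 and 0.47.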

How the data were processed

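Pooled embryonic hearts were measured on Affymetrix arrays, 3 Hdac3-Isl1KO and 3 Hdac3-flox/flox. The authors deposited log2 values, made with oligo and RMA per the submitters' processing notes; the sources used here name no version, build or row annotation. RMA compresses differences of dim rows. The 23521 of 41345 rows with 1 gene symbol gave 22180 genes, each read by its row with the highest mean. Of the other rows, 1814 had several symbols and 16010 none listed. The test was limma 3.58.1, run in R 4.3.3 (lmFit, eBayes with a constant prior, two-sided, 6.92 degrees of freedom), Benjamini-Hochberg adjusted over all genes with a threshold of 0.05; the steps were tested on simulated data. Figures used matplotlib 3.10.9. The apolipoprotein genes and the gene lists were chosen with earlier results of these data known. Named were the 8 genes, list members past the threshold, the 4 smallest p-values of each list and the 5 profiles nearest Apoa2. Apoa5, Apoc3, Mttp, Abca1, Hnf4a, Ttr, Tnnt2, Actc1 and the motifs were chosen after values or sequences were seen. So were Ahsg, Fga, Fetub, Hand1, Cd68, Csf1r, C1qa, Spi1, Ptprc and Aif1, and Psg21, Psg17, Ascl2, Psg16, Ctsq, Foxa2, Cubn and Amn. Promoter windows are RefSeq's (GRCm38.p6), matched by symbol for 7 of 8 genes. Alternatives were other variance models, normalizations, filters, row rules, thresholds, a replicate block and each array left out.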

Additional observations from a re-analysis of the deposited data

How the results depend on the processing

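Of the 8 apolipoprotein genes 0 passed under every setting but 1, which left out the genes below the median row. There 3 of the 8 were tested and 1 passed (Apoa2, limma adjusted p = 0.0372), where 4.94% of all 12480 genes tested did. Leaving out each array in turn gave 0 of the 8 in every case. The 95 genes called in all became 866 with a prior variance trended on level, robust or not, 617 without genes below the median row, 235 without those below the 25th percentile row, 317 at an adjusted p under 0.1, 243 with array weights, 149 with quantile normalization and 2 to 25 with 1 array left out. With the labels' replicate number as a block, limma called 0 genes (2744 at an unadjusted p under 0.05, among them Apoa2 and Apoc1). Nothing in the labels pairs same-numbered arrays, and these deviated from their group means with correlations of -0.013, -0.086 and 0.04, and 1 of 6 arrays correlated best with its own number. Apoa4 turned sign with arrays left out, in a range of -0.056 to 0.15, as did Apoc3 (-0.10 to 0.13), Apoa5 (-0.23 to 0.080), Hnf4a (-0.0012 to 0.28), Mttp (-0.0028 to 0.17) and Abca1 (-0.022 to 0.14). The median of the 8 stayed between 0.18 and 0.22. Dim rows limit the rest: 5 of the 8 lay below the median row.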

Other observations

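A row annotated to both Apoc4 and Apoc2 was not part of the comparison. It read 5.81, 5.70 and 6.23 in Hdac3-Isl1KO hearts and 5.84, 5.73 and 5.80 in Hdac3-flox/flox hearts. Hdac3-Isl1KO replicate 3 was the highest of the 6 arrays and the other 2 Hdac3-Isl1KO arrays lay within or below the Hdac3-flox/flox range, with a mean difference of 0.12 against an SD of 0.28 in Hdac3-Isl1KO and 0.05 in Hdac3-flox/flox hearts. The row of Apoc2 alone was highest in another array, Hdac3-Isl1KO replicate 2, so the 2 rows did not rank the arrays alike.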
